A study of Homo sapiens with 49 samples.

Results

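MYCN RNA and the RNA of 11867 tested genes were compared in SHEP-21N cells between 24 h of MYCN shutdown and the start of the time course. SHEP-21N is a human neuroblastoma cell line that carries MYCN under a TET-off promoter, so that doxycycline in the medium (0.2 µg/ml) stops its transcription. All groups share this line and the transgene; the labels do not say whether it is 1 clone. The 24 h group holds 3 libraries, numbered 0, 1 and 2 in the tables, and the 0 h group, which received no doxycycline, holds 2, numbered 1 and 2. The 3 libraries at 16 h are the nearest earlier time and serve as another comparison. These are 5 of 49 samples of the series, and the 11867 genes are those of 23621 with a mean of at least 1 FPKM (fragments counted relative to transcript length and to all mapped fragments) over the 20 SHEP-21N libraries. No group with doxycycline and without the shutdown was analysed here, so a response to the drug and one to the loss of MYCN cannot be told apart.

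MYCN encodes a basic helix-loop-helix transcription factor of the MYC family, which pairs with MAX and binds E-box motifs near gene starts. In childhood neuroblastoma its amplification marks aggressive disease. MYC proteins are best known for driving ribosome production, nucleotide synthesis and entry into the cell cycle, and they are also found at most active promoters. Neuroblastoma cells are described as adrenergic, with sympathetic transcription factors, or mesenchymal, with vimentin and AP-1 factors.

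Values are given on 2 scales, because they answer different questions. Rescaled FPKM were set by the authors to the ERCC spike-in RNAs added at lysis after counting cells, and so keep a fall shared by most genes. Unnormalised FPKM are shares of each library and hide such a fall. Unless another scale is named, levels are rescaled FPKM, and a fold change is a difference of mean log2(rescaled FPKM + 1), 24 h minus 0 h, which understates changes of weakly expressed genes. A gene rose or fell where the adjusted p of limma's moderated test, corrected over all tested genes by Benjamini and Hochberg, was under 0.05. No label says that replicates came from separate cultures, so p-values measure the spread between these libraries. The tables give no read numbers, so depth and counting error are unknown.

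In the 24 h libraries MYCN was at 17.3, 13.9 and 11.2 FPKM, against 723 and 855 FPKM at 0 h. Every 24 h library lay far below both 0 h libraries, as the labels would have it (log2 fold change -5.72, SE 0.218, limma adjusted p = 3.24e-12). Among the adrenergic markers, PHOX2A and DDC were listed at 0 in all 5 unnormalised libraries, and 8 of 11 such markers were under 1 FPKM in both groups. The other 3 were expressed and fell. HAND2 had means of 30.6 FPKM at 24 h and 47.5 FPKM at 0 h. Those of GATA2 were 6.37 and 15.7 FPKM, and those of ISL1 3.01 and 5.06 FPKM. Among these, only the GATA2 call passed whichever single library was removed. All 10 mesenchymal markers were expressed, vimentin (VIM) at a mean of 449 FPKM at 24 h and 527 FPKM at 0 h, with no call. Of these markers PRRX1 rose (means 44.4 FPKM at 24 h and 29.5 FPKM at 0 h) and FOSL1 fell (27.8 and 129 FPKM). The remaining mesenchymal markers had no call. In a separate list of 24 mesenchymal factors, counted further below, no gene rose on rescaled values without the 24 h library numbered 1. The keratins KRT8 and KRT18 were abundant as well. The 5 epithelial markers summed to 1179 to 1235 unnormalised FPKM at 24 h and 868 to 1002 at 0 h, while EPCAM and CDH1, which define epithelium, were under 1 FPKM in both groups.

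Across the transcriptome, falls outnumbered rises. At 24 h 731 genes (6.16%) were higher and 3848 (32.4%) lower than at 0 h, and the median gene changed by -0.31 on the log2 scale. On unnormalised values 3430 (28.9%) were higher and 4324 (36.4%) lower, with the median at -0.04, and after centring every library on its own median 3515 (29.6%) and 3823 (32.2%). The call was shared by 731 higher and 3673 lower genes (31.0%), and no gene was called in opposite directions. Of all tested genes 43.8% had every 24 h library below both 0 h libraries and 11.0% above both, and on unnormalised values 42.1% and 35.1%. A further 2699 genes were higher on unnormalised values and did not pass on the rescaled ones. On rescaled values falls were also larger. Of the genes with calls on both scales, 674 fell and 66 rose by more than 1 in rescaled log2 fold change. This cut was not applied to unnormalised values. The quartiles of the log2 fold change were -0.62 and 0.02 on rescaled values, and -0.35 and 0.29 on unnormalised values.

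The general shift rested on few libraries. Library medians of log2(rescaled FPKM + 1) averaged 3.51 ± 0.270 at 24 h (SD, n = 3) and 3.81 ± 0.088 at 0 h (n = 2), which an exact permutation test did not separate (two-sided p = 0.3, the smallest possible being 0.1). Spike-ins took 5.34 ± 1.22% of all FPKM at 24 h and 3.40 ± 0.512% at 0 h (exact permutation p = 0.2). The 24 h library numbered 0 was the highest of its group for most genes named here and number 2 the lowest. Leaving out the 24 h library numbered 0 gave 487 higher and 5503 lower genes, and leaving out number 2 gave 858 and 1921. Leaving out the 0 h library numbered 2 gave 176 and 700, and number 1 gave 483 higher. On unnormalised values any library could be left out with 2447 to 3254 genes higher and 3517 to 4233 lower. The labels give the 24 h libraries the same indexes as those of 4 h, so not all times were sequenced in 1 pool, and which pool held which time is not given; pool and time cannot be told apart.

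Among single genes, the largest falls after MYCN and MYCNOS were those of the AP-1 subunit FOSL1, the RNA polymerase I subunit CD3EAP, the endothelin-converting enzyme ECE2 and the U3 small nucleolar ribonucleoprotein component RRP9, and the largest rises those of IGFBP5, EPGN, CXCL12 and DHRS3. FOSL1 stood at 31.9, 29.8 and 21.8 FPKM at 24 h, against 117 and 141 FPKM at 0 h (log2 fold change -2.18, SE 0.236). IGFBP5, which encodes a binding protein of insulin-like growth factors, stood at 18.0, 14.7 and 13.9 FPKM at 24 h, against 3.35 and 3.66 FPKM at 0 h (+1.87, SE 0.160). In neither gene did the groups overlap, and the naming rule asked for this on both scales, which 731 rises (6.16% of all tested genes) and 3654 falls (30.8%) met. These are all 731 genes called higher on both scales and 3654 of the 3673 called lower. Groups that lie apart thus add little to a call, here and in the genes named below. Of the transcripts in the rule, MYCNOS overlaps MYCN on the other strand, and its fall cannot be separated with certainty from that of MYCN.

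**Figure D1:**
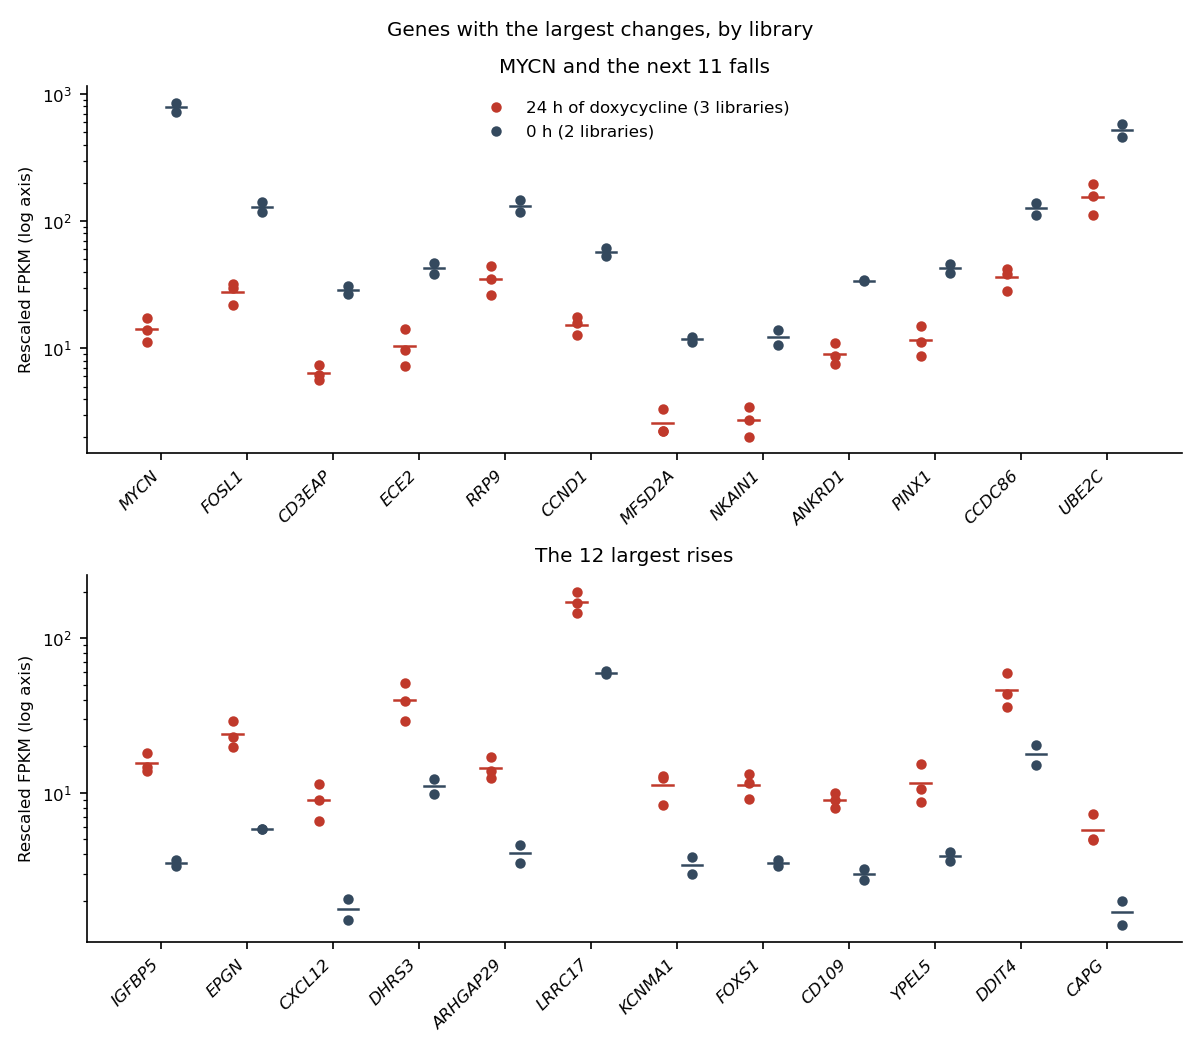
Rescaled FPKM in each library for MYCN and the next 11 falls, MYCNOS left out (upper panel) and the 12 largest rises (lower panel), on log axes, with the 24 h libraries left of the 0 h libraries. Points are libraries and bars are group means; the groups are apart in every gene shown, by the rule that chose them, and MYCN shows the widest gap.

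The machinery that makes ribosomes held falls at every step, beside falls in 32.4% of all tested genes. Of 14 tested genes of RNA polymerase I and its factors, which transcribe ribosomal RNA, 10 fell, with a list median of -0.85. Of 22 genes of RNA polymerase III, which makes 5S and transfer RNA, 16 fell. So did 13 of 14 core proteins of small nucleolar ribonucleoproteins, which guide RNA modification, and 54 of 67 factors of rRNA processing and subunit assembly (medians -0.92 and -0.87). None of these genes rose, against the 6.16% of all genes that did, and all 4 list medians lay below that of all genes on the unnormalised scale too (-0.45 to -0.65, against -0.04). With the 0 h library numbered 2 left out the falls in these 4 lists numbered 8, 5, 3 and 23, and with the 24 h library numbered 2 left out polymerase III had 9 and a rise of 1 gene. On unnormalised values they numbered 10, 16, 13 and 51, and at least 10, 15, 13 and 48 with any of the 5 libraries left out.

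CD3EAP stood at 7.42, 6.15 and 5.66 FPKM at 24 h, against 26.9 and 30.8 FPKM at 0 h, the largest fall of the polymerase I list (-2.01, SE 0.172, limma adjusted p = 1.09e-06). POLR1A, the catalytic subunit, fell as well (-1.13). The largest fall of polymerase III was that of the regulated subunit POLR3G, at 5.55, 4.32 and 3.98 FPKM at 24 h and 12.6 and 13.3 FPKM at 0 h (-1.32, limma adjusted p = 3.66e-05). RRP9 stood at 44.4, 35.0 and 26.4 FPKM at 24 h and 118 and 147 FPKM at 0 h (-1.90). The box C/D core protein NOP56 (-1.12), the H/ACA assembly factor NAF1 (-1.01) and the nucleolar proteins NOL9 (-1.28), RRP1B (-1.33), MYBBP1A (-1.52) and RRS1 (-1.43) fell too. CCDC86, a nucleolar protein outside these lists, stood at 42.3, 38.1 and 28.0 FPKM at 24 h and 112 and 140.1 FPKM at 0 h (-1.78). In each of these genes all 24 h libraries were lower than both 0 h libraries, as in 43.8% of all tested genes.

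Promoter sequence was examined because MYC proteins bind the E-box, whose preferred form is the palindrome CACGTG. Windows of 300 bases, from 250 before to 50 after the RefSeq gene start, were taken from the GRCh38.p14 annotation, 1 per gene. The files themselves use hg19, so only RefSeq coordinates are given. The 6 genes with the largest falls among the named genes whose window holds the motif are shown, 5′ to 3′ on the gene's strand, in lower case with CACGTG in capitals. CD3EAP, named POLR1G by RefSeq, RRP9 and CCDC86 are nucleolar proteins, SRM makes spermidine, AEN is an apoptosis-enhancing nuclease induced by p53, and NKAIN1 is a membrane protein that interacts with the sodium pump.
CD3EAP, chr19:45406394-45406693, plus strand: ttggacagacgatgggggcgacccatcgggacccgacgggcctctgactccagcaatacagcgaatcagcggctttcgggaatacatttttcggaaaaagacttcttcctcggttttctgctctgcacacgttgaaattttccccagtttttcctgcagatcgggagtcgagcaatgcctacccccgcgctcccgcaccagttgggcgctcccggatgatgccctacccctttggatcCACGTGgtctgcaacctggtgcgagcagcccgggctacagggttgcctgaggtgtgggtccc
RRP9, chr3:51941855-51942154, minus strand: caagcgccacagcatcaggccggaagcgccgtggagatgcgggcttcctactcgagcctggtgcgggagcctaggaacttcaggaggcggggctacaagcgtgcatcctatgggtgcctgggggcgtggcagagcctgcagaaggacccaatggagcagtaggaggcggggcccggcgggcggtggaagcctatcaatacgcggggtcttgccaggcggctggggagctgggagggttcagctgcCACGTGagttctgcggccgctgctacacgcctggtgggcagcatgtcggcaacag
NKAIN1, chr1:31239838-31240137, minus strand: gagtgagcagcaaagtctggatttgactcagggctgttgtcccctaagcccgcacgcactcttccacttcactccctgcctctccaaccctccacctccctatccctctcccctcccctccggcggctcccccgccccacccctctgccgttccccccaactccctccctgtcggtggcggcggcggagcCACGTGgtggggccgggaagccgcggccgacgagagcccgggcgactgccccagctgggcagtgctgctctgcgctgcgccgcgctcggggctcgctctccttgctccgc
CCDC86, chr11:60841863-60842162, plus strand: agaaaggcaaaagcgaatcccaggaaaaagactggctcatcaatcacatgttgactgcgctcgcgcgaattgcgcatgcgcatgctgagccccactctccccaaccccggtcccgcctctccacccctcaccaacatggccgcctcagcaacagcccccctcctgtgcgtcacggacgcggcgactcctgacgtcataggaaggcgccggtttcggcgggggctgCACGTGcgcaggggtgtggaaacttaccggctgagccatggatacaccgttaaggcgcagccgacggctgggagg
AEN, chr15:88621090-88621389, plus strand: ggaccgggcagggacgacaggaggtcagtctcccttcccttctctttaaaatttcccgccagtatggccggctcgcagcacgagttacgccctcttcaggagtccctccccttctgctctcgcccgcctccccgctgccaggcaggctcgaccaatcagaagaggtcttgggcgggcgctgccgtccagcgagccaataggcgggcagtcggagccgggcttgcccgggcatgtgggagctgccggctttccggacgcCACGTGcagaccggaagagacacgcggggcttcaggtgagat
SRM, chr1:11059969-11060268, minus strand: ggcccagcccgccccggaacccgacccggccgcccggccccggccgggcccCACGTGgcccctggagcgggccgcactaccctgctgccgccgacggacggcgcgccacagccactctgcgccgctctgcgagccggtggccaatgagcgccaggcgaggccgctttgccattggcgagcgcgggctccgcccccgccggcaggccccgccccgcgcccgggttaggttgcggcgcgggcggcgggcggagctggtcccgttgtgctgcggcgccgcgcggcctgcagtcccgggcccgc

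Each of these windows holds 1 copy. It begins at position -12 from the start in CD3EAP, -5 in RRP9, -60 in NKAIN1, -25 in CCDC86, 9 in AEN and -199 in SRM. Of all 27305 promoter windows given, 7.43% hold CACGTG on either strand and 68.9% hold the general form CANNTG, which includes it. These windows include genes that were not tested, and their median GC content is 58.3%. They are therefore not a like base for the shares of tested genes below. Among tested genes only 78.1% had a window, under the 80% needed to describe them all, and the check is void for the genes lower on the rescaled scale (79.2% with a window). Where enough had one, CACGTG was in 6.84% of windows of the genes that rose on the rescaled scale. On unnormalised values it was in 13.2% of windows of lower genes and 8.15% of those of higher genes. The general motif did not separate these 2 groups in the same way (59.3% and 59.6%), nor did the median GC content (66.0% in both). By list, 22 of 61 windows of rRNA processing factors held CACGTG (36.1%). Cytosolic ribosomal proteins had it in 3 of 63 windows (4.76%), though both lists fell. Other lists also varied: it was in 1 of 13 windows of the polymerase I list (7.69%), where 10 of 14 genes fell. Of clock genes, where 4 rose and 3 fell, 4 of 13 windows held it (30.8%). A motif is a run of letters, not a bound site.

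Protein components of the ribosome and of translation had list medians nearer to 0 than the assembly factors, a difference that was not tested. Of 78 cytosolic ribosomal protein genes 61 fell and none rose (median -0.72, range -1.05 to -0.25), beside 32.4% and 6.16% of all genes. Unnormalised values had 76 falls, beside 36.4% of all genes. In the highest of 5 bins of expression level, described below, the shares were 46.2% on rescaled and 61.2% on unnormalised values. RPL36, of the large subunit, stood at 2002, 1311 and 1089 FPKM at 24 h and 2649 and 3263 FPKM at 0 h (-1.05, limma adjusted p = 0.00605; 0.106 without the 0 h library numbered 2). RPS27, of the small subunit, had the highest level of these genes at 24 h, with 7139, 4210.5 and 3882 FPKM, against 7596 and 8879 FPKM at 0 h. Its change of -0.75 passed (limma adjusted p = 0.028) and was lost when either 0 h library or the 24 h library numbered 1 or 2 was left out (up to 0.223). The count depended on single libraries: it was 15 and 6 without the 24 h libraries numbered 1 and 2, taken in turn, and 36 and 0 without the 0 h libraries numbered 1 and 2. On unnormalised values 63 to 76 fell with any library left out.

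Of 47 translation initiation and elongation factors 31 fell, among them EIF4EBP1, the mTORC1-controlled repressor of cap binding, at 128, 99.2 and 72.0 FPKM at 24 h and 218 and 267 FPKM at 0 h (-1.31). The count was 17 and 10 without the 24 h libraries numbered 1 and 2, in turn, 2 without the 0 h library numbered 2, and 34 on unnormalised values with any library left out. Cytosolic aminoacyl-tRNA synthetases fell in 8 of 20, near the 32.4% of all genes, and on unnormalised values 12 were lower and 2 higher (rescaled falls were 13 and 4 with the 24 h libraries numbered 0 and 2 left out in turn, and 0 with the 0 h library numbered 2 left out). In the splicing list, of snRNP proteins and hnRNPs, 37 of 61 fell (45 lower and 5 higher on unnormalised values), such as SF3A2 (-1.56) and PTBP1 (-1.24), but 13 without the 24 h library numbered 2 and 4 without the 0 h library numbered 2.

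Mitochondrial gene expression moved the same way, beside falls in 32.4% of all genes. Of 76 mitochondrial ribosomal proteins 57 fell, of 31 protein import components 25 and of 17 mitochondrial aminoacyl-tRNA synthetases 12, with medians of -0.78, -0.72 and -0.77 and no rise. MARS2, the mitochondrial methionyl-tRNA synthetase, stood at 5.50, 5.13 and 4.05 FPKM at 24 h, against 15.0 and 17.5 FPKM at 0 h (-1.56, limma adjusted p = 2.05e-05). PAM16, of the import motor, stood at 66.0, 43.5 and 40.4 FPKM at 24 h and 123 and 148 FPKM at 0 h (-1.45). Both genes had every 24 h library below the 0 h libraries, as did the small-subunit proteins MRPS2 (-1.45) and MRPS30 (-1.17) and the channel TOMM40 (-1.31). Of all tested genes 43.8% did. Subunits of oxidative phosphorylation, which these systems supply, fell in 33 of 75 on the rescaled scale, nearer to the 32.4% of all genes. Unnormalised values had 60 of 75 lower, beside 36.4% of all genes. In the highest of 5 bins of expression level, described below, 46.2% fell on rescaled and 61.2% on unnormalised values. Leaving out the 24 h library numbered 2 gave 27, 15, 10 and 7 falls in these 4 lists and 1 rise among the synthetases, and leaving out the 0 h library numbered 2 gave 6, 6, 3 and 0. Oxidative phosphorylation also moved to 18 without the 0 h library numbered 1, and to 72 and 9 without the 24 h libraries numbered 0 and 1. On unnormalised values at least 60, 24, 10 and 40 members were lower with any library left out, and 2 of the synthetases were higher with all libraries in.

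Most enzymes of nucleotide and one-carbon synthesis fell, while polyamine genes fell about as often as all genes (32.4%). Of 26 genes of purine and pyrimidine synthesis 20 fell (median -0.74), of 14 serine and folate enzymes 10 (median -0.79) and of 12 polyamine and hypusine genes 5 (median -0.47). PFAS, a step of purine synthesis, stood at 19.1, 17.4 and 13.3 FPKM at 24 h, against 46.0 and 57.2 FPKM at 0 h (-1.58, limma adjusted p = 1.17e-04). SRM, which makes spermidine and whose promoter is printed above, stood at 139.5, 122 and 85.1 FPKM at 24 h and 309 and 397 FPKM at 0 h (-1.62). In both genes every 24 h library lay below both 0 h libraries, as in 43.8% of all tested genes. DHODH and CAD of pyrimidine synthesis (-1.30 and -1.28), the hypusine enzyme DOHH (-1.29), the methionine adenosyltransferase MAT2A (-1.16) and the mitochondrial folate enzyme MTHFD2 (-1.06) fell as well. Falls in the 3 lists numbered 6, 3 and 2 when the 0 h library numbered 2 was left out, and 13 in the first when the 24 h library numbered 2 was. On unnormalised values they had 21, 10 and 5 falls and 3 rises each.

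Nutrient uptake and carbon metabolism were mixed. Of 20 amino acid transporters 10 fell, among them the glutamate carrier SLC1A3 at 3.91, 3.22 and 3.11 FPKM at 24 h and 10.0 and 9.84 FPKM at 0 h (-1.31) and the leucine carrier SLC7A5 at 109, 99.9 and 76.0 FPKM at 24 h and 225 and 276 FPKM at 0 h (-1.40). On unnormalised values 10 transporters were lower and 4 higher. In glycolysis and the pentose phosphate pathway 10 of 31 fell, near the background of 32.4%, and on unnormalised values 18 were lower and 5 higher. The first enzyme, hexokinase HK2, led them with 8.27, 7.14 and 5.23 FPKM at 24 h and 22.5 and 25.8 FPKM at 0 h (-1.69). This list had 20 and 3 falls without the 24 h libraries numbered 0 and 2, in turn, and 2 without the 0 h library numbered 2. Lipid synthesis split: fatty acid synthase FASN fell, with 93.6, 85.2 and 64.1 FPKM at 24 h and 177 and 219 FPKM at 0 h (-1.29), whereas the sterol reductase TM7SF2 rose, with 3.24, 2.41 and 2.84 FPKM at 24 h and 0.892 and 1.10 FPKM at 0 h (+0.94, limma adjusted p = 3.37e-04). In all 4 of 34 lipid genes rose and 6 fell, beside 6.16% and 32.4% of all genes. The balance turned on unnormalised values, with 13 higher and 9 lower, beside 28.9% and 36.4% of all genes. The rescaled counts became 1 and 1 without the 0 h library numbered 2; falls were 12 and 2 without the 24 h libraries numbered 0 and 2, in turn.

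Protein quality control and turnover held few large changes. Falls made up 9 of 45 proteasome genes, 10 of 22 heat shock chaperones and 8 of 55 lysosome and autophagy genes, with list medians of -0.41, -0.41 and -0.21, beside falls in 32.4% of all genes. On unnormalised values 20 proteasome genes were lower and 9 higher, and 11 heat shock chaperones were lower and none higher. The HSP90 co-chaperone FKBP4 (-1.46), the heat shock factor HSF1 (-1.15), the proteasome assembly chaperone PSMG3 (-1.37) and the proton pump subunit ATP6V0B (-1.50) were the clearest of them. In the lysosome list 23 genes were higher and 11 lower on unnormalised values, beside 28.9% and 36.4% of all genes. Leaving out the 24 h libraries numbered 0, 1 and 2 in turn gave 26, 5 and 3 falls in the proteasome list and 18, 5 and 5 in the lysosome list, and heat shock chaperones had 5 without number 2. Leaving out the 0 h library numbered 2 gave 1, 2 and 2 falls in the 3 lists.

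**Figure D2:**
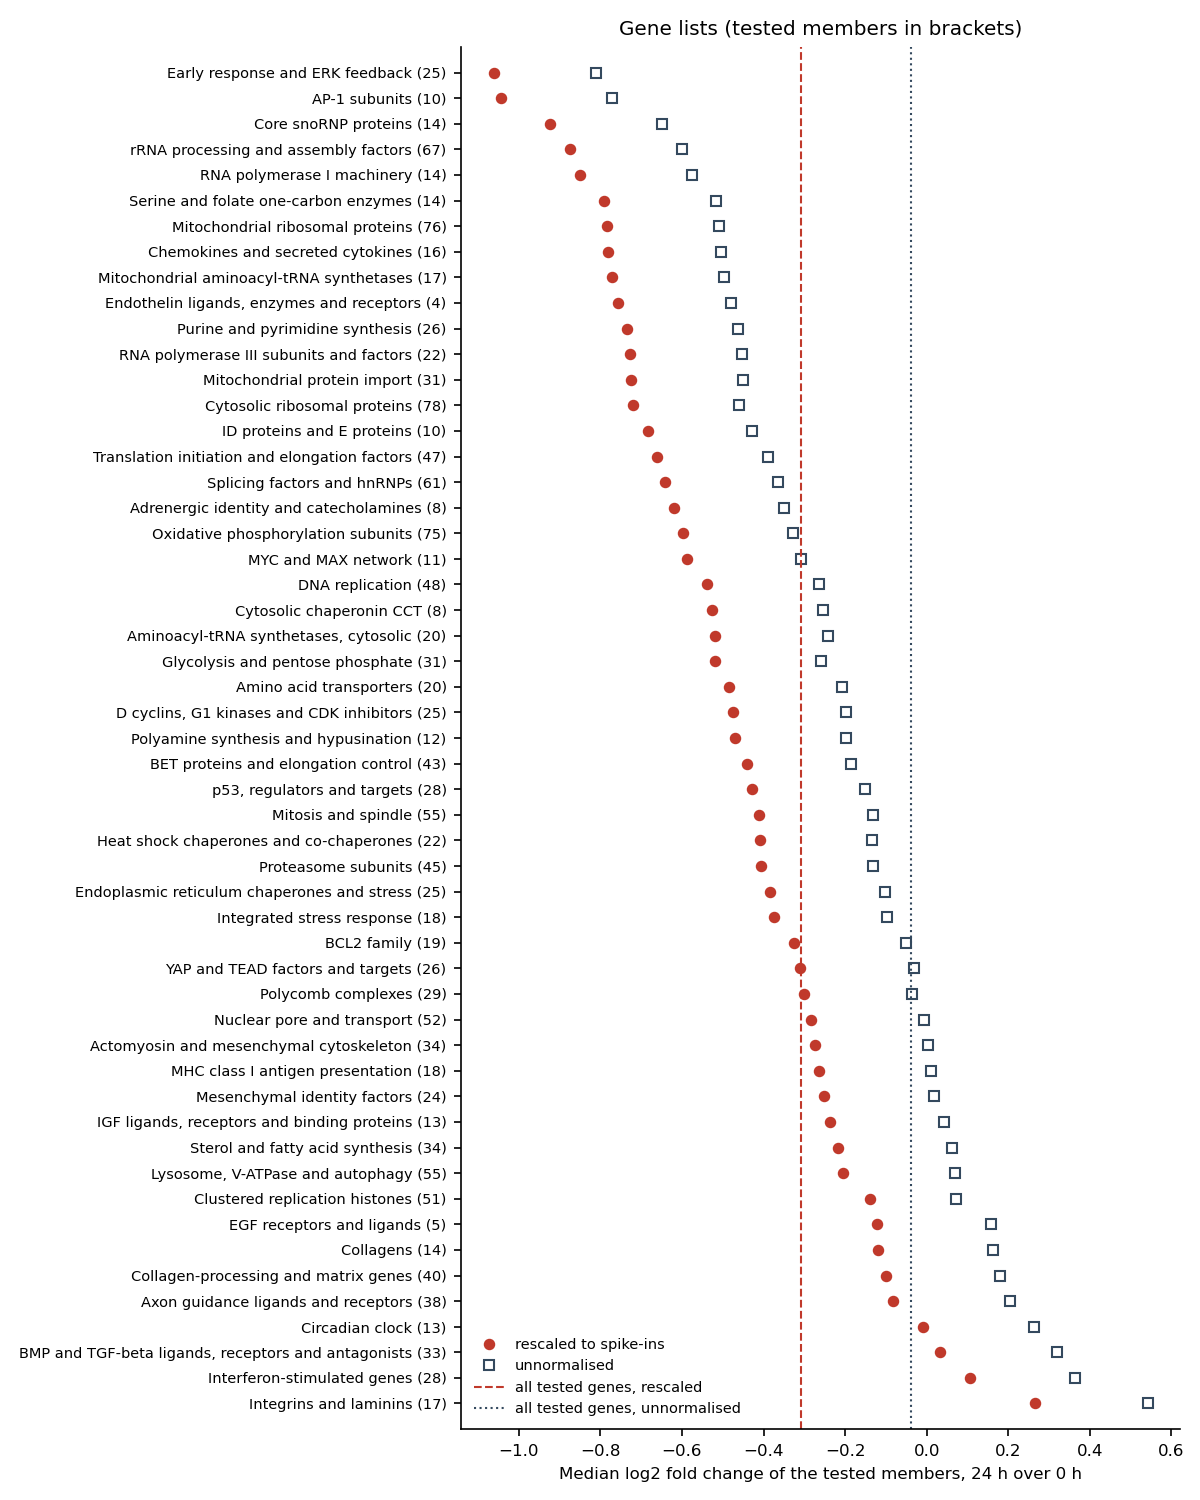
Median log2 fold change, 24 h over 0 h, of the tested members of 53 gene lists, filled circles on rescaled and open squares on unnormalised values, with dashed and dotted lines at the medians of all tested genes (-0.31 and -0.04). The order of lists is that of the rescaled medians, from early response genes (-1.06) to integrins and laminins (0.26), and the unnormalised medians run nearly in parallel.

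Early response genes and AP-1 subunits had the lowest medians of the 53 lists. Of 25 genes of the early response and of feedback on ERK signalling 24 fell (median -1.06), beside 32.4% of all genes. Of 10 AP-1 subunits 9 did (median -1.04). AP-1 pairs FOS and JUN family proteins, and its members are induced by growth factors. Beside FOSL1, BATF3 (-1.44), ATF3 (-1.19) and the small MAF protein MAFK (-1.05) fell. The growth-induced regulators EGR1 and NR4A1 fell (-1.44 and -1.32), as did the ERK phosphatase DUSP4 (-1.19) and the factor KLF2, with 2.82, 2.42 and 1.90 FPKM at 24 h and 8.14 and 11.9 FPKM at 0 h (-1.69). On unnormalised values the counts were again 24 and 9, and 15 and 4 genes fell on rescaled values without the 0 h library numbered 2.

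Targets of YAP and TEAD, the transcription factors under Hippo control, divided. Of 26 genes 11 fell and 2 rose, beside 32.4% and 6.16% of all genes. Unnormalised values had 11 lower and 10 higher, beside 36.4% and 28.9% of all genes. ANKRD1 stood at 11.0, 8.70 and 7.50 FPKM at 24 h, against 34.2 and 33.8 FPKM at 0 h (-1.81, limma adjusted p = 1.14e-05). CTGF, a matricellular protein now named CCN2, stood at 28.7, 24.8 and 21.3 FPKM at 24 h and 66.0 and 79.1 FPKM at 0 h (-1.51). Both had every 24 h library below both 0 h libraries, as did 43.8% of all tested genes. FJX1 (-1.50) and the tissue factor F3 (-1.08) fell too. The 2 rises, of TEAD1 itself (+0.55) and MYOF (+0.54), were lost without the 0 h library numbered 2 (limma adjusted p = 0.176 and 0.122), when 7 genes fell, and that of MYOF also without number 1 (0.059).

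Secreted ligands changed in both directions. EPGN, a ligand of the EGF receptor, stood at 29.1, 22.9 and 19.8 FPKM at 24 h and 5.80 and 5.84 FPKM at 0 h (+1.85, SE 0.173, limma adjusted p = 3.82e-06). Of 5 tested genes of EGF receptors and ligands 1 rose, 2 fell and 2 had no call, beside 6.16% and 32.4% of all genes. On unnormalised values 3 were higher and 2 lower, beside 28.9% and 36.4% of all genes. The falls were those of 2 relatives of EPGN: NRG1 fell (-1.05), and HBEGF stood at 19.1, 15.6 and 13.2 FPKM at 24 h and 23.3 and 26.2 FPKM at 0 h. The change of HBEGF (-0.61, limma adjusted p = 0.016) was lost without the 0 h library numbered 2 (adjusted p = 0.163) or the 24 h library numbered 2 (adjusted p = 0.0674). ECE2 stood at 14.1, 9.65 and 7.30 FPKM at 24 h and 38.3 and 47.0 FPKM at 0 h (-1.98), and the endothelin precursor EDN1 at 4.62, 3.76 and 3.61 FPKM at 24 h and 11.6 and 11.7 FPKM at 0 h (-1.34). ECE2 and EDN1 were thus both lower in all 24 h libraries, as were 43.8% of all tested genes. Another converting enzyme, ECE1, had no call, and 2 of 4 tested endothelin genes fell, beside 32.4% of all genes.

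Of 16 chemokines and secreted cytokines 11 fell and 2 rose, beside 32.4% and 6.16% of all genes. CXCL12, the ligand of CXCR4, stood at 11.3, 9.01 and 6.55 FPKM at 24 h, against 1.51 and 2.04 FPKM at 0 h (+1.82, limma adjusted p = 1.26e-05). CXCL14 stood at 4.26, 3.21 and 2.48 FPKM at 24 h and 1.00 and 0.861 FPKM at 0 h (+1.14). These were the only rises of the list on the rescaled scale and both calls held with any 1 of the 5 libraries left out. The neutrophil chemokine CXCL3 (-1.07), the monocyte chemokine CCL2 (-0.91), the angiogenic factor VEGFA (-1.08) and IL11 (-1.04) fell. The list had 7 falls without the 24 h library numbered 2 and 6 without the 0 h library numbered 2.

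In the BMP and TGF-beta list 5 of 33 genes rose and 9 fell, beside 6.16% and 32.4% of all genes. The BMP antagonist noggin, NOG, stood at 0.967, 0.709 and 0.542 FPKM at 24 h and 3.91 and 3.75 FPKM at 0 h (-1.48, limma adjusted p = 1.2e-05), the signal transducer SMAD9 fell (-0.80) and the receptor BMPR2 rose (+0.76). On unnormalised values 19 of the list rose and 9 fell, beside 28.9% and 36.4% of all genes. ID proteins, which are induced by BMP and block E proteins, fell: ID3 stood at 197, 153 and 125 FPKM at 24 h and 324 and 411 FPKM at 0 h (-1.22). Of 10 ID and E protein genes 7 fell and 2 rose, against 4 falls without the 24 h library numbered 2 and 1 fall and no rise without the 0 h library numbered 2. There was 1 rise without the 24 h library numbered 0 or 1. The BMP list had 3 rises without the 24 h library numbered 0, and 1 rise and 3 falls without the 0 h library numbered 2.

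Cell-cycle genes fell in part. Cyclin D1, CCND1, which carries cells through G1, stood at 17.6, 15.7 and 12.6 FPKM at 24 h, against 53.4 and 61.2 FPKM at 0 h (-1.85, limma adjusted p = 1.2e-05). E2F5 fell (-1.63), whereas the CDK inhibitor CDKN1C, known as p57, rose, with 7.70, 5.30 and 4.25 FPKM at 24 h and 1.61 and 2.13 FPKM at 0 h (+1.21). On rescaled values it was the 1 rise among 25 G1 genes, 12 of which fell (32.4% of all genes did), and on unnormalised values 8 were higher and 13 lower. UBE2C, which supplies ubiquitin to the anaphase-promoting complex, stood at 196, 157 and 111 FPKM at 24 h and 459 and 583 FPKM at 0 h (-1.77). With it fell the mitotic kinases CDK1 (-1.37) and AURKB (-1.45) and the replication licensing factor CDT1 (-1.25). Of 55 mitosis genes 23 fell and 1 rose, and of 48 replication genes 23 fell, beside the same 32.4%. On unnormalised values 25 mitosis genes were lower and 12 higher, and 32 replication genes were lower and 2 higher. Leaving out the 0 h library numbered 2 gave 2, 7 and 1 falls in the G1, mitosis and replication lists, and no rise in mitosis. With the 24 h library numbered 2 left out 11 mitosis and 14 replication genes fell and 2 G1 genes rose, and with number 0 left out 39 replication genes fell and no mitosis gene rose.

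Genes of cell death went both ways. AEN stood at 18.5, 16.3 and 12.7 FPKM at 24 h and 46.7 and 61.0 FPKM at 0 h (-1.71), and the p53-induced BH3 protein PMAIP1, or NOXA, fell by 1.03 on the log2 scale. BNIP3L, which also acts in mitophagy, stood at 18.9, 15.2 and 12.4 FPKM at 24 h and 6.51 and 5.27 FPKM at 0 h (+1.25). BMF, a BH3 protein that senses cytoskeletal damage, stood at 5.96, 4.46 and 3.98 FPKM at 24 h and 1.37 and 1.72 FPKM at 0 h (+1.18). All 4 genes had separate groups on both scales, as did nearly all genes called on both. Of 28 genes of p53 and its targets 13 fell and none rose on the rescaled scale, and of 19 BCL2 family genes 7 fell and 2 rose, the falls of the second list being near the 32.4% of all genes. On unnormalised values 12 p53 genes were lower and 7 higher, and 8 BCL2 family genes were lower and 7 higher. The BCL2 list had 4 and 3 falls without the 24 h libraries numbered 1 and 2, in turn, and both lists had fewer, 4 and 1, without the 0 h library numbered 2.

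Lists of adhesion, matrix and axon guidance genes had medians above that of all genes (-0.31). Of 17 integrins and laminins 6 rose and none fell (median 0.26), against 6.16% of all genes higher, and 14 rose on unnormalised values, where any library could be left out without changing that count. The integrin subunit ITGAV stood at 35.8, 28.9 and 29.3 FPKM at 24 h and 17.3 and 14.8 FPKM at 0 h (+0.92, limma adjusted p = 0.00109). The laminin chain LAMB3 stood at 12.5, 10.2 and 8.99 FPKM at 24 h and 4.86 and 5.49 FPKM at 0 h (+0.90), and LAMA4 rose as well (+0.82). On rescaled values 1 of the list fell without the 24 h library numbered 0, and 3 rose without the 0 h library numbered 2. In all 3 named genes every 24 h library lay above both 0 h libraries, as in 11.0% of all tested genes.

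Of 38 axon guidance genes 10 rose and 5 fell, beside 6.16% and 32.4% of all genes. Unnormalised values had 20 higher and 5 lower, beside 28.9% and 36.4% of all genes. The secreted semaphorin SEMA3C stood at 54.0, 42.9 and 42.3 FPKM at 24 h and 22.8 and 19.7 FPKM at 0 h (+1.08), and the semaphorin receptor NRP1 at 38.0, 34.0 and 26.2 FPKM at 24 h and 15.6 and 16.8 FPKM at 0 h (+0.96). The netrin NTN4 (+0.78) and SEMA5A (+0.68) rose, while the membrane-anchored SEMA7A (-1.03) and the ephrin receptor EPHA2 (-1.19) fell. In this list 2 genes fell without the 24 h library numbered 1 or 2, and 6 and 4 rose and 2 and 2 fell without the 0 h libraries numbered 1 and 2, in turn. Of 40 genes that process collagen or build matrix 5 rose and 10 fell, beside 6.16% and 32.4% of all genes. Here 20 were higher and 10 lower on unnormalised values, beside 28.9% and 36.4% of all genes. The protease ADAMTS1 (-1.29), the urokinase receptor PLAUR (-1.44) and the stromelysin MMP3 (-1.01) fell in the matrix list. Rises in it numbered 3 without the 24 h library numbered 0 or 1 and 2 and 0 without the 0 h libraries numbered 1 and 2, in turn, and falls numbered 5 without the last.

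Interferon-stimulated genes and the clock added to the rises. Of 28 interferon-stimulated genes 7 rose and 4 fell (median 0.11), beside 6.16% and 32.4% of all genes. Unnormalised values had 17 higher and 5 lower, beside 28.9% and 36.4% of all genes. IFI44 stood at 3.52, 2.80 and 2.57 FPKM at 24 h and 0.923 and 1.16 FPKM at 0 h (+0.95), and the ADP-ribosyltransferases PARP14 and PARP9 rose (+0.95 and +0.73). This list had 2 and 1 falls without the 24 h libraries numbered 1 and 2, in turn, and 4 rises and no fall without the 0 h library numbered 2. ERAP2, an aminopeptidase that trims peptides for MHC class I, stood at 10.5, 9.47 and 8.75 FPKM at 24 h and 3.70 and 2.82 FPKM at 0 h (+1.32), but the peptide transporter TAP2 fell (-1.21). Of 13 clock genes 4 rose and 3 fell, and on unnormalised values 7 were higher and 4 lower. The PAR-domain factor DBP stood at 7.34, 6.25 and 4.82 FPKM at 24 h and 1.94 and 2.92 FPKM at 0 h (+1.06), its relative TEF at 3.33, 3.00 and 1.87 FPKM at 24 h and 0.889 and 0.831 FPKM at 0 h (+0.98), and the nuclear receptor NR1D2 at 16.8, 12.7 and 11.1 FPKM at 24 h and 6.93 and 5.54 FPKM at 0 h (+0.99). In these 3 every 24 h library lay above both 0 h libraries, as in 11.0% of all tested genes. BHLHE41, a repressor of the clock, fell (-0.84). The clock list had 3 rises and 1 fall without the 0 h library numbered 2.

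Counts of identity genes differed by scale, as did those of all genes. Of 24 mesenchymal factors 2 rose and 8 fell, beside 6.16% and 32.4% of all genes. Unnormalised values called 28.9% of all genes higher and 36.4% lower, and 10 and 8 of the mesenchymal factors. On rescaled values none was called without the 0 h library numbered 2, where 9 were higher and 8 lower on unnormalised values; without the 24 h libraries numbered 0, 1 and 2 in turn 1, 0 and 4 genes rose, with 4 falls in the last case, and none rose without the 0 h library numbered 1. Of 8 expressed adrenergic genes 6 fell (2 without the 0 h library numbered 2), and on unnormalised values 6 were lower and 2 higher. GATA2, a sympathetic factor, stood at 7.77, 6.08 and 5.27 FPKM at 24 h and 14.8 and 16.6 FPKM at 0 h (-1.19). In these bulk samples less RNA per cell and fewer cells that carry it cannot be told apart.

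Within the network of MYC partners, the paralog MYC rose, at 6.27, 5.87 and 4.27 FPKM at 24 h and 2.34 and 2.68 FPKM at 0 h (+0.87, limma adjusted p = 0.00204). MAX, the common partner, stood at 28.3, 22.7 and 16.7 FPKM at 24 h and 40.1 and 48.5 FPKM at 0 h. Its fall of -0.97 was lost without the 0 h library numbered 2 (limma adjusted p = 0.0581). On this scale, which is per length, the level of MYC at 24 h was far under that of MYCN at 0 h, with 5.47 ± 1.06 FPKM (SD, n = 3) against 789 ± 93.4 FPKM (n = 2).

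The change depended on how strongly a gene was expressed. Tested genes were put into 5 bins of equal size by their mean level over all 20 libraries. From the lowest to the highest bin the median change was -0.05, -0.15, -0.29, -0.45 and -0.56, higher genes made up 10.1% of the lowest and 1.22% of the highest bin, and lower genes 17.4% and 46.2%. On unnormalised values the medians were 0.16, 0.13, -0.01, -0.17 and -0.29, and 61.2% of the highest bin were lower. The shares of all genes set beside the lists above do not take level into account. The difference between the highest and the lowest bin was -0.27, -0.52 and -0.71 in the 24 h libraries numbered 0, 1 and 2, each taken against the 0 h mean, and -0.37, -0.45 and -0.51 on unnormalised values. In every 24 h library the highest bin had the lowest median on both scales. With 0.1 FPKM added in place of 1 FPKM the difference over all 3 libraries was -0.49, against -0.51.

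**Figure D3:**
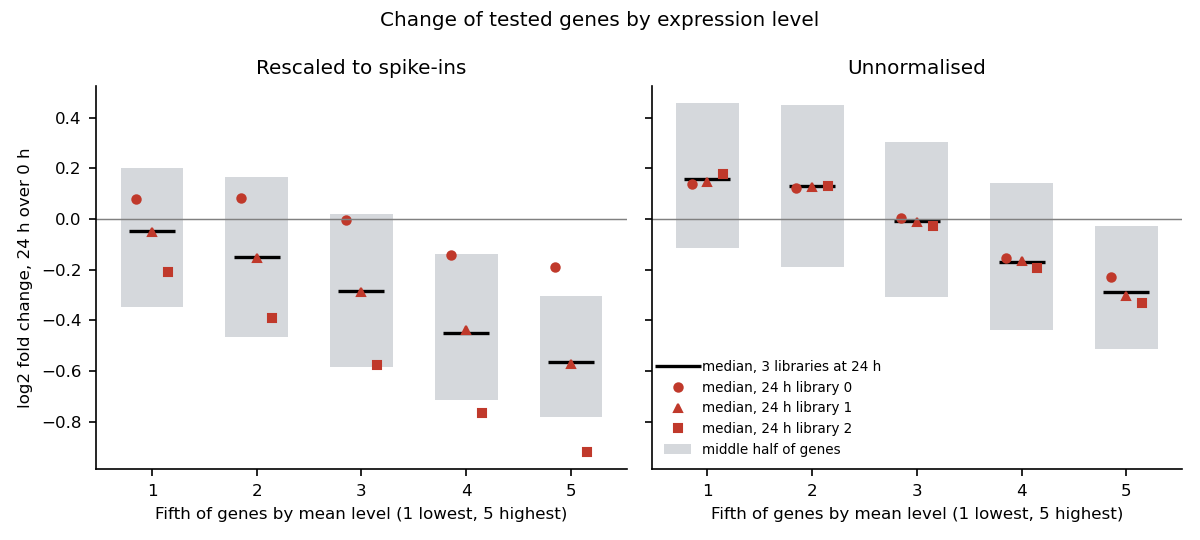
Log2 fold change, 24 h over 0 h, in 5 equal bins of tested genes from low to high mean level, on rescaled (left) and unnormalised values (right); grey boxes span the quartiles of the genes, black bars are medians and red symbols the medians of single 24 h libraries against the 0 h mean. Medians run from -0.05 in the lowest to -0.56 in the highest bin on rescaled values and from 0.16 to -0.29 on unnormalised ones, and the libraries spread more widely on the rescaled scale.

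The last stretch of the time course was tested against 16 h, a comparison that does not use the 0 h libraries. Between 24 h and 16 h 29 genes (0.244%) rose and 905 (7.63%) fell, and on unnormalised values 1323 (11.1%) rose and 2205 (18.6%) fell. Early response genes fell in 20 of 25 and AP-1 subunits in 8 of 10, and so did 8 of 26 YAP and TEAD genes, 7 of 16 chemokines and cytokines and 15 of 55 mitosis genes. None of 78 cytosolic ribosomal proteins and 5 of 67 rRNA processing factors fell in this interval. Leaving out 1 library moved the count of falls widely, to 4565, 222 and 140 without the 24 h libraries numbered 0, 1 and 2, in turn, and to 4235, 121 and 204 without those of 16 h. Rises numbered 9 without the 24 h library numbered 1, and 8 and 13 without the 16 h libraries numbered 1 and 2.

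The largest falls of this interval were in genes that stood higher at 16 h than at 8 h. ANKRD1 stood at 11.0, 8.70 and 7.50 FPKM at 24 h, against 53.4, 81.8 and 70.1 FPKM at 16 h (-2.78, limma adjusted p = 1.53e-08), with a mean of 21.0 FPKM at 8 h. KLF2 had a mean of 2.38 FPKM at 24 h and 10.2, 15.4 and 11.8 FPKM at 16 h (-1.98). CTGF had 28.7, 24.8 and 21.3 FPKM at 24 h and 78.0, 113 and 95.0 FPKM at 16 h (-1.89). The groups were far apart in all 3, and ANKRD1 at 16 h also lay above both 0 h libraries. RGS4, a brake on G-protein signalling, the phosphatase DUSP1 and FOSL1 followed (-1.77, -1.53 and -1.51). CCND1 fell by 1.38 and EDN1 by 1.36 on the log2 scale in the same interval, and MYC fell by 0.80.

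The largest rises against 16 h were those of DBP (+1.13), DHRS3, a retinaldehyde reductase (+0.95), DDIT4, an inhibitor of mTORC1 (+0.92), IGFBP5, CXCL12 and TXNIP, which binds thioredoxin (+0.86 each). IGFBP5 stood at 7.32, 7.20 and 9.97 FPKM at 16 h and CXCL12 at 3.47, 4.84 and 4.94 FPKM, below all 24 h libraries of each gene. DDIT4 averaged 46.4 ± 12.2 FPKM at 24 h (SD, n = 3), 19.7 to 26.1 FPKM in the 16 h libraries and 48.8 FPKM at 8 h. TXNIP averaged 42.0 ± 10.3 FPKM at 24 h (SD, n = 3), 19.5 to 27.8 FPKM in the 16 h libraries and 34.7 FPKM at 8 h, so that in both genes 16 h lay below the later and the earlier time. The 2 patterns, of genes high and genes low at 16 h, are visible in the time courses.

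**Figure D4:**
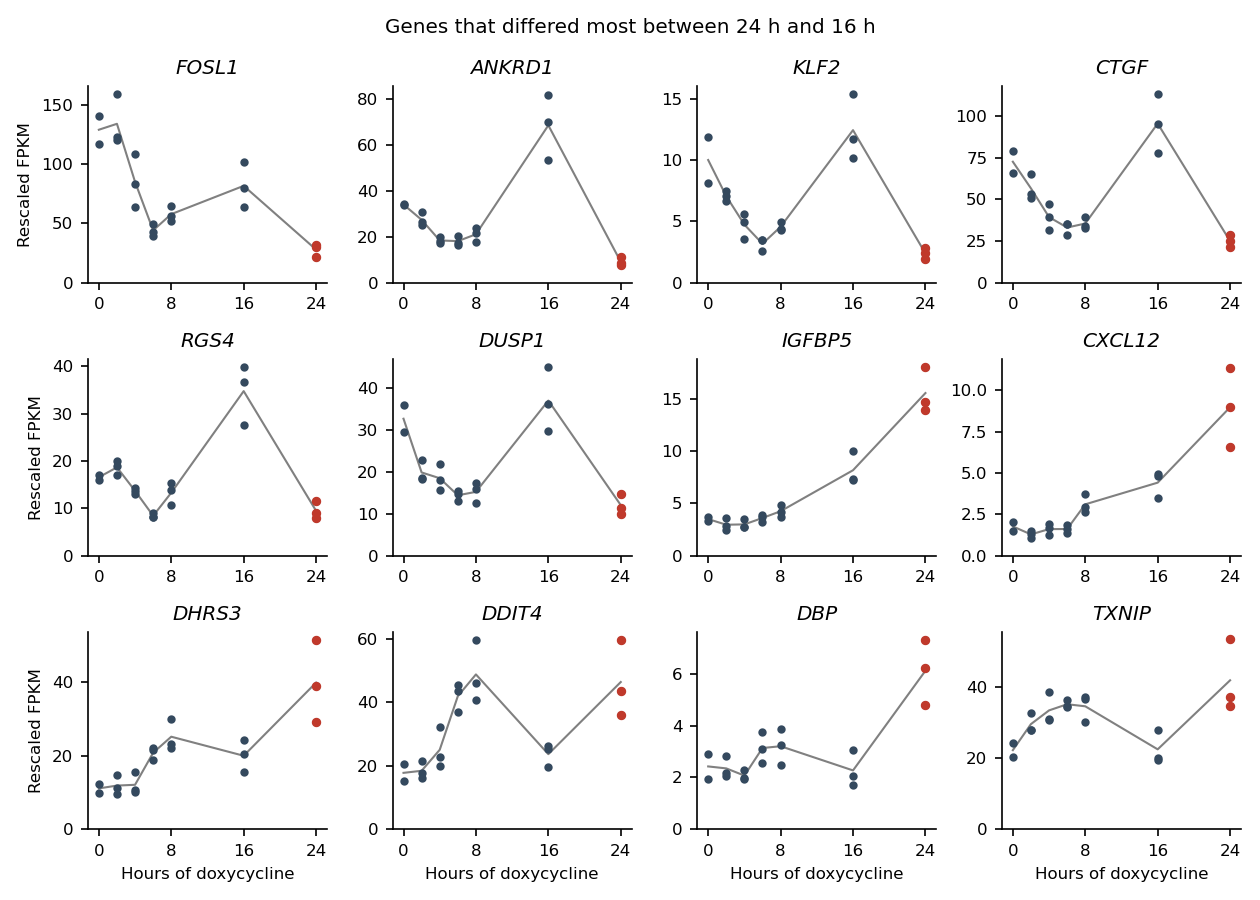
Rescaled FPKM from 0 to 24 h of doxycycline for the 6 largest falls and the 6 largest rises between 24 h and 16 h, on linear axes that start at 0; points are libraries (24 h in red) and lines join the means. ANKRD1, KLF2, CTGF, RGS4 and DUSP1 are highest at 16 h among the later times, while IGFBP5 and CXCL12 are highest at 24 h.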

How the data were processed

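The authors deposited 2 tables of FPKM for SHEP-21N cells, 1 unnormalised and 1 rescaled to ERCC spike-ins by a method that the sources here do not describe. Polyadenylated RNA was made into stranded libraries, per the labels' protocols, and the submitters' processing notes name HISAT, Cufflinks version 2.0.0 and the build hg19. Each table lists 23713 entries, 92 of them spike-ins, which were left out of all tests.

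From these, log2(FPKM + 1) was fitted in limma 3.58.1 (R 4.3.3) with 1 mean per time over 20 libraries, moderated variances and an intensity trend, for genes with a mean of at least 1 unnormalised FPKM. The fit was tested on simulated data with independent noise in each gene. That check cannot assess shifts shared by all genes of a library. Tables and figures used Python 3.11.15 with pandas 2.3.3, numpy 2.4.6, scipy 1.17.1 and matplotlib 3.10.9. Columns were matched to groups by name, and their numbers only tell libraries apart. Single values per library were compared by exact permutation.

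The genes and the 53 lists were chosen with earlier results of these data known. Named genes are MYCN, the 25 largest rises and falls called on both scales with groups apart on both (small and uncharacterised RNAs left out), up to 4 genes per list and direction by adjusted p, the 6 largest rises and falls against 16 h, the 6 highest levels at 24 h among genes outside the small RNA classes and 6 promoters; the text gives a subset. KRT8, KRT18, EPCAM and other markers come from a fixed marker list. Windows matched 9264 of 11867 tested genes, 733 of them through an older symbol. Some genes are not reported here.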

Additional observations from a re-analysis of the deposited data

How the results depend on the processing

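Most named genes were chosen for their calls in these same data, and the largest changes for calls on both scales. Keeping a call was thus in part fixed by the rule. Of 294 named genes none changed direction between 24 h and 0 h under any alternative run. On unnormalised values 293 kept their call, and 290 did after centring each library on its median. With 0.1 FPKM added 294 did, with no filter on low values 280 and without the intensity trend 294. With only the 2 groups in the fit 246 did. With a library left out 169 to 280 did, the fewest without the 0 h library numbered 2. Counts of higher genes against 0 h moved to 3430 on unnormalised values, 3515 after centring and 485 with only the 2 groups fitted, where 2226 were lower; with a library left out they ran from 176 to 858 higher and from 700 to 5503 lower. On unnormalised values leaving out a library, an alternative added after seeing the data, gave 2447 to 3254 higher and 3517 to 4233 lower. Against 16 h the higher and lower counts were 1323 and 2205 on unnormalised values, 1373 and 1367 after centring, and 69 and 363 with only the 2 groups. Without the filter 49 were higher, and with a library left out 8 to 29 were higher and 121 to 4565 lower. Same-numbered libraries at 24 h and 0 h did not deviate together (correlations 0.01 and -0.04). With 2 libraries at 0 h the deviations from their mean mirror each other, so this cannot decide whether the numbers pair libraries. With the replicate number as a block 590 genes were higher and 3423 lower than at 0 h. Against 16 h this block gave 14 higher and 473 lower. The cause of these moves was not tested. Depth is unknown in FPKM, which limits what can be said of weakly expressed genes.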
